A study of Rattus norvegicus with 2 samples.

Results

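GABA is the main inhibitory transmitter of the brain, and 7 genes of its pathway are described here in the hypothalamus of rats that were tickled, touched lightly or left alone. They are Gad1, Gad2, Slc32a1, Slc6a11, Abat, Gabbr1 and Gabbr2, and cover synthesis, vesicle loading, uptake, breakdown and the metabotropic receptor. A probe was taken as a member when the array's platform annotation gave it 1 of these symbols. This found 11 of the 44290 probes and 7 of the 12092 genes with a value. All 11 probes had a value on both arrays, and 0 probes named a member together with another gene.

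The animals were male Wistar rats, weaned and 21 days old at the start and kept singly behind screens. Tickled rats were stimulated by hand in imitation of rough-and-tumble play, to which rats respond with 50 kHz calls. Light-touch rats were touched on the same schedule, Monday to Friday over 4 weeks with 15 s of stimulus alternating with 15 s of rest, and no-stimulus rats received neither. Each condition had 4 animals, per the labels, whereas the data hold 1 two-colour array for each comparison, with tickled RNA in Cy5 on both arrays and light-touch or no-stimulus RNA in Cy3. How the 4 animals were spread over or pooled on an array, and whether the same tickled RNA was used on both arrays, is not stated in the sources used here.

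Neurons make GABA from glutamate with the glutamate decarboxylases, pack it into vesicles with the vesicular transporter and release it onto ionotropic GABA-A and metabotropic GABA-B receptors. Transporters on neurons and astrocytes then remove it, and GABA transaminase breaks it down in mitochondria. In the hypothalamus GABA neurons are widespread and include the cells of the arcuate nucleus that make Agrp and Npy and the cells of the suprachiasmatic nucleus.

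Each value below is the linear ratio deposited for a probe, read as tickled over the other condition. This is the likely direction but an unstated one. If it ran the other way, each ratio would turn into its reciprocal, so that 0.74 for Slc32a1 against no stimulus would read 1.35. With 1 array per comparison there is no spread between animals and no test, and sizes are described only. The gauge of precision is the spread, within an array, between probes that name 1 gene, which was 0.18 log2 units (SD) on each array, or a factor of 1.13. It came from 4354 genes against no stimulus and 4226 against light touch, and it leaves out variation between animals. Tickled RNA was in Cy5 on both arrays, so dye and condition cannot be told apart. The median gene had a log2 ratio of 0.01 on both arrays. A ratio holds no level, so that neither how strongly a member was expressed nor whether the tissue carried the markers of the hypothalamus at a given level can be read from it.

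The genes that make GABA and load it into vesicles had ratios below 1 against no stimulus and above 1 against light touch. Gad1 encodes the glutamate decarboxylase found throughout the GABA neuron and was measured by 3 probes. Against no stimulus the Gad1 probes had ratios of 0.84, 0.82 and 0.75, with a median of 0.82. Against light touch the same Gad1 probes had ratios of 1.18, 1.2 and 1.06, with a median of 1.18. Every Gad1 probe was thus below 1 on the first array and above 1 on the other, and the SD over its 3 probes was 0.09 log2 units against no stimulus and 0.10 against light touch.

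Gad2 encodes the second decarboxylase, which is attached to synaptic vesicles at the nerve ending. Its single probe had a ratio of 0.79 against no stimulus and of 1.08 against light touch. Slc32a1 encodes the vesicular inhibitory amino acid transporter, the protein that fills vesicles with GABA and glycine. Its single probe had a ratio of 0.74 against no stimulus, where rounding of the deposited value allows 0.735 to 0.745, and of 1.07 against light touch. Slc32a1 had the lowest ratio of the 7 members on the no-stimulus array, and 1.03% of all genes on that array lay below it. The corresponding shares were 1.91% for Gad2 and 2.93% for Gad1. On the light-touch array 8.41% of genes lay above Gad1, 22.2% above Gad2 and 24.98% above Slc32a1, so that Gad2 and Slc32a1 sat well inside the bulk of genes there.

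Measured against the spread between probes, Slc32a1 lay 2.40 SD below a ratio of 1 on the no-stimulus array, Gad2 1.88 SD and Gad1 1.58 SD. On the light-touch array Gad1 lay 1.35 SD above 1, Gad2 0.63 SD and Slc32a1 0.55 SD. Over all 5 probes of these 3 genes the ratios ran between 0.74 and 0.84 against no stimulus, 5 of 5 below 1, and between 1.06 and 1.2 against light touch, 5 of 5 above 1. A ratio on the same side of 1 was had by 45.1% of all genes on the no-stimulus array and by 51.3% on the light-touch one. The differences among Gad1, Gad2 and Slc32a1 were smaller than the probe spread on both arrays. The 3 probes of Gad1 share a gene, so the 5 probes stand for 3 genes.

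**Figure D1:**
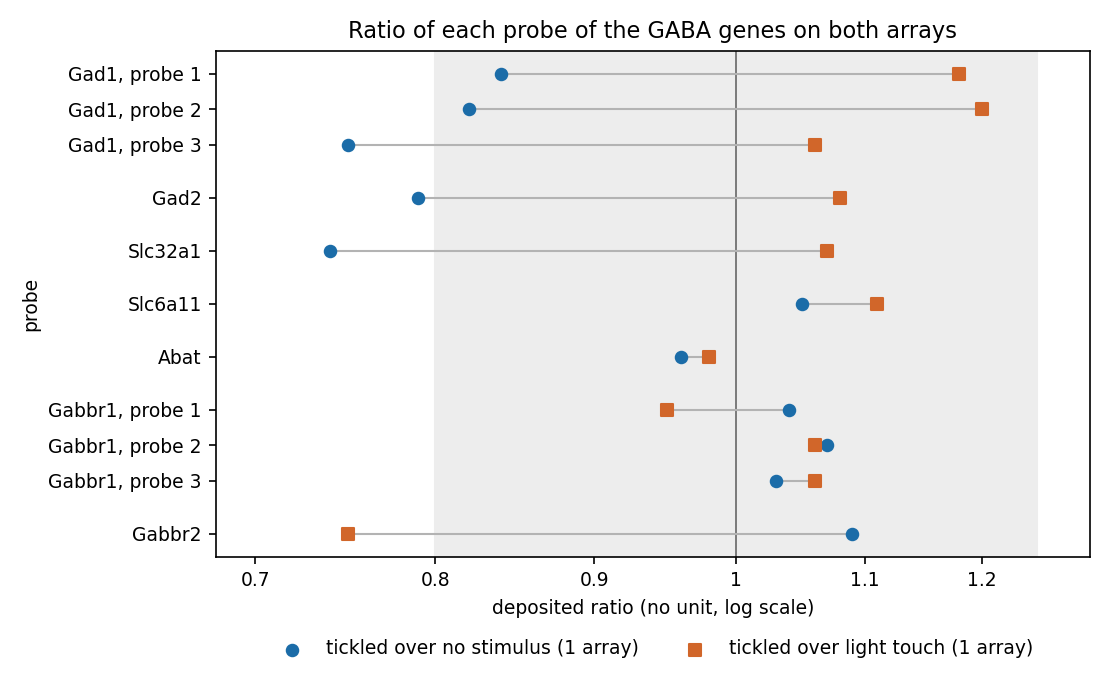
Deposited ratio of each of the 11 probes (log scale, no unit) against no stimulus (circles) and against light touch (squares), 1 array each, with the grey band between 0.8 and its reciprocal. The 5 probes of Gad1, Gad2 and Slc32a1 lie between 0.74 and 0.84 against no stimulus and between 1.06 and 1.2 on the light-touch array, while Gabbr2 lies at 1.09 and 0.75.

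Since Gad1, Gad2 and Slc32a1 had like values on both arrays, the sequence before the start of each is shown to let them be compared. These are the 250 bases before the start that RefSeq annotates on the GRCr8 assembly, given 5′ to 3′ on the gene's strand, and this start need not be the one used in the hypothalamus. Capitals mark matches on either strand to 6 short motifs. These were the TATA box with the letters TATAAA, the CCAAT box, the GC box with the letters GGGCGG, the core of the cyclic AMP response element with the letters TGACG, the E-box with the letters CANNTG and a homeodomain core with the letters TAATTA.
Gad1, chr3:75777202-75777451, plus strand: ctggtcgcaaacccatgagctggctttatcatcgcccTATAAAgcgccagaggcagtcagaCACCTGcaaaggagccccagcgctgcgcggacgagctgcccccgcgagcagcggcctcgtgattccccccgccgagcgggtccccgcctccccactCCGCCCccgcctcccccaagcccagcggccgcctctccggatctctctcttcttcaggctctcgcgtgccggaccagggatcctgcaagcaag
Gad2, chr17:89671468-89671717, plus strand: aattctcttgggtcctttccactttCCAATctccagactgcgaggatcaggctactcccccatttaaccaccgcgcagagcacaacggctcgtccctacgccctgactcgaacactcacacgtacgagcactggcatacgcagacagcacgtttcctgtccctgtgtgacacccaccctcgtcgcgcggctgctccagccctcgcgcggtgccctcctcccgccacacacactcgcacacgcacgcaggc
Slc32a1, chr3:167686995-167687244, plus strand: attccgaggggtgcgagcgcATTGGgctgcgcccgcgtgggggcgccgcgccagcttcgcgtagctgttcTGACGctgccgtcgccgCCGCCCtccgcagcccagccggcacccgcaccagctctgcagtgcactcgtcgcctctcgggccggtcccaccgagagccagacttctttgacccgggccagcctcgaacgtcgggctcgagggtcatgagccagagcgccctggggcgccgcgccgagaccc
Each promoter was rich in G and C. The share of G and C was 68.4% for Gad1, 62% for Gad2 and 73.6% for Slc32a1, whereas the median over 33469 rat promoters of the same length was 51.2%. The number of CG pairs was 23, 22 and 34 in the same order, beside a median of 5. Members without these ratios were as rich or richer, with a share of G and C of 73.6% for Slc6a11, 75.6% for Gabbr1 and 78.8% for Gabbr2, and Gabbr2 had 39 CG pairs. No motif of the 6 was found in all 3 sequences. TATAAA, present in 12.9% of all promoters, was in Gad1, and CANNTG, present in 65.5%, was also in Gad1. CCAAT, present in 34.02%, was in Gad2 and Slc32a1. GGGCGG, present in 30.5%, was in Gad1 and Slc32a1, TGACG, present in 18.2%, was in Slc32a1, and TAATTA, present in 4.86%, was in none of the 3. GGGCGG was also in Slc6a11, Gabbr1 and Gabbr2, and TGACG also in Gabbr2, so neither was particular to the genes with like ratios. Motifs were counted separately, also where they overlap. A match describes letters only and a missing match says only that these letters are not in the window.

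Removal and breakdown of GABA showed ratios close to 1. Slc6a11 encodes the plasma membrane GABA transporter found mainly on astrocytes. Its probe had a ratio of 1.05 against no stimulus and 1.11 against light touch, with 32.1% and 16.2% of genes above it. Abat encodes GABA transaminase, the mitochondrial enzyme that begins GABA breakdown. Its probe had a ratio of 0.96 against no stimulus and 0.98 against light touch. Both genes lay within 1 SD of the probe spread from 1 on both arrays, and both had the same side of 1 on the arrays, Slc6a11 above and Abat below. Against light touch Slc6a11 was farther from 1 than Gad2 at 1.08 and Slc32a1 at 1.07.

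The subunits of the GABA-B receptor did not have like values on the light-touch array. This receptor is an obligate pair of Gabbr1, which binds GABA, and Gabbr2, which couples to the G protein and carries the pair to the cell surface. The 3 probes of Gabbr1 had ratios of 1.04, 1.07 and 1.03 against no stimulus and of 0.95, 1.06 and 1.06 against light touch, with medians of 1.04 and 1.06. The single Gabbr2 probe had a ratio of 1.09 against no stimulus and of 0.75 against light touch. Gabbr2 was thus the highest member on the first array and the lowest on the other, and lay on the opposite sides of 1 from Gad1, Gad2 and Slc32a1. On the light-touch array 2.03% of genes lay below Gabbr2, which was 2.34 SD of the probe spread below 1. The gap between Gabbr2 and Abat, the next member in order on that array, was 0.39 log2 units and exceeded the probe spread. Because Gabbr2 rests on 1 probe, its value has no second probe to be compared with.

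Against no stimulus the members in ascending order were Slc32a1, Gad2, Gad1, Abat, Gabbr1, Slc6a11 and Gabbr2. The step of 0.23 log2 units between Gad1 and Abat was the only one between neighbours in this order that was larger than the probe spread. Against light touch the order was Gabbr2, Abat, Gabbr1, Slc32a1, Gad2, Slc6a11 and Gad1, and there the step between Gabbr2 and Abat was the only such one.

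As a list, the members had 4 of 7 ratios below 1 against no stimulus, where 45.1% of all genes were below 1, and 3 of 7 above 1, where 51.8% of all genes were. The median log2 ratio of the list was -0.06. A ratio of 0.8 or less was reached by 2 members, Gad2 and Slc32a1, and by 2.48% of all genes. The reciprocal of 0.8 or more was reached by 0 members and by 5.87% of all genes. Against light touch 5 of 7 members were above 1, where 51.3% of all genes were, and 2 of 7 below 1, where 46.1% were. The median log2 ratio was 0.10. At 0.8 or less stood 1 member, Gabbr2, beside 4.24% of all genes, and at its reciprocal or more 0 members, beside 5.23%. At 1.5-fold in either direction there were 0 members on both arrays. The corresponding shares of all genes on the no-stimulus array were 0.362% below and 1.62% above. On the light-touch array they were 0.928% and 1.57%.

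**Figure D2:**
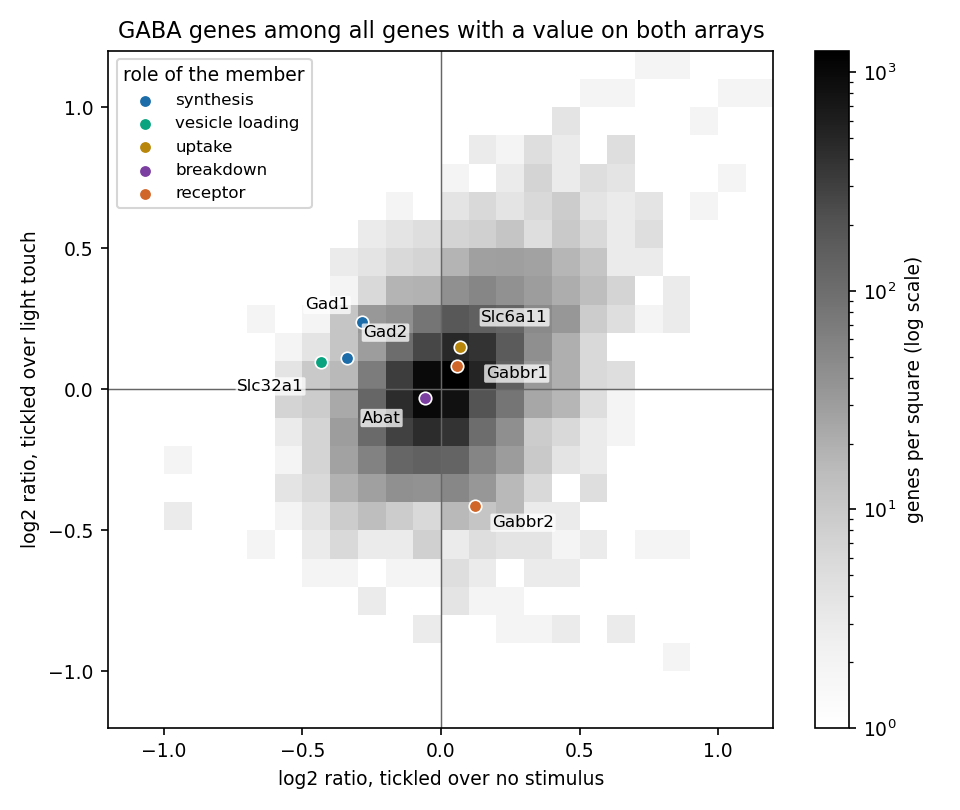
Log2 ratio against no stimulus (horizontal) and against light touch (vertical) of the 7 members, coloured by role, over the number of genes per square of 0.1 log2 units (grey, log scale), with 11497 genes inside the plotted range and 37 outside it. Gad1, Gad2 and Slc32a1 lie at the left edge of the bulk and above 0, Abat, Slc6a11 and Gabbr1 near the centre, and Gabbr2 low.

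Both arrays contain the tickled group, and their difference gives light touch over no stimulus indirectly, provided that both arrays received the same tickled RNA. On this reading Gad1 had an indirect ratio of 0.695, Gad2 of 0.731 and Slc32a1 of 0.692. For single probes the 3 values of Gad1 were 0.712, 0.683 and 0.708. The 5 probes of the 3 genes ran between 0.683 and 0.731, with an SD of 0.04 log2 units, where the spread of indirect values between probes of the same gene was 0.15 (SD, 4148 genes). Gabbr2 had an indirect ratio of 1.45, on the other side of 1. Slc6a11 was at 0.946, Abat at 0.980 and Gabbr1 at 0.981, a value whose side of 1 changed with the way its 3 probes were combined. In terms of that probe spread Gad1 lay 3.57 SD below 1, Gad2 3.07 SD and Slc32a1 3.62 SD. Gabbr2 lay 3.67 SD above 1, and the other members were within 1 SD. The SD over all genes was 0.23 log2 units, wider than that probe spread. Of all genes, 1.05% had a lower indirect ratio than Gad1, 1.84% than Gad2 and 0.98% than Slc32a1, and 1.92% a higher one than Gabbr2. A ratio of 0.8 or less was reached by 3 of 7 members and by 4.07% of all genes, and its reciprocal or more by 1 of 7 and by 5.64%. At 1.5-fold there were 0 members in either direction, beside 0.711% of all genes below and 1.62% above. In all 6 of 7 members had an indirect ratio below 1, as did 48.4% of all genes, and 1 of 7 above 1, as did 48.8%.

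**Figure D3:**
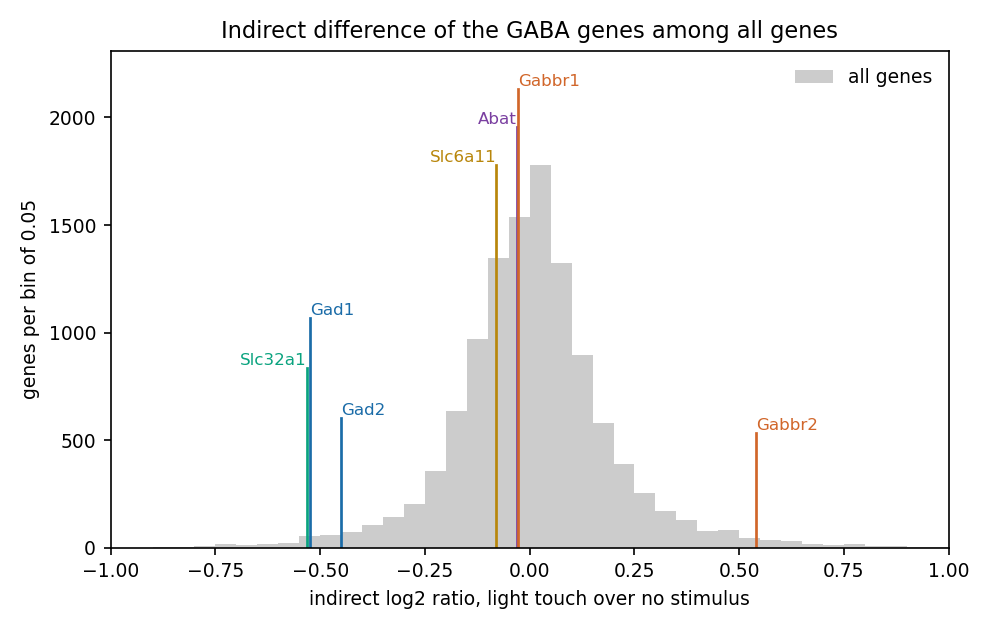
Number of genes per bin of 0.05 log2 units (grey) by indirect log2 ratio, light touch over no stimulus, with a line for each member (line height has no meaning). Gad1, Gad2 and Slc32a1 stand between -0.53 and -0.45 and Gabbr2 at 0.54, and Abat, Gabbr1 and Slc6a11 near 0.

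Most other genes of GABA handling had ratios near 1. For the counts of these lists, 51.8% of all genes were above 1 against no stimulus and 51.3% against light touch. Of the other transporters that can carry GABA, 2 of 4 had a value. Slc6a13, a GABA transporter found mainly in the meninges, had 1.11 against no stimulus and 0.95 against light touch, and the taurine transporter Slc6a6 had 1.05 and 1.07. Of the 6 genes of later GABA breakdown and of alternative routes to GABA, 5 were above 1 against no stimulus. Against light touch 3 were. The median log2 ratios of the list were 0.06 and 0.01 in the same order. The succinic semialdehyde dehydrogenase gene Aldh5a1, next after Abat in the pathway, had 0.933 and 0.929. Aldh1a1, an aldehyde dehydrogenase that can make GABA from putrescine in dopamine neurons of the mouse, had 1.42 and 1.17 and was the 1 gene of this list outside the range from 0.8 to its reciprocal. For the supply of glutamate and glutamine, 12 of 13 genes were measured, 9 above 1 against no stimulus and 5 against light touch. Their median log2 ratios were 0.07 and -0.02, and 0 genes were outside the range from 0.8 to its reciprocal on either array.

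Genes of the cofactor and of other vesicular transporters, 7 of 8 measured, had a median log2 ratio of 0.04 on both arrays. Their range was wide. Pdxk, which makes the pyridoxal phosphate that glutamate decarboxylase needs, had 0.995 against no stimulus and 1.02 against light touch. The vesicular glutamate transporters set beside Slc32a1 were Slc17a7 at 1.64 and 0.309, Slc17a6 at 1.18 and 0.764, and Slc17a8 at 0.78 and 1.05. The vesicular monoamine transporter Slc18a2 had 1.02 and 1.71. Slc17a6 and Slc17a7 thus had the opposite sides of 1 from Slc32a1 on both arrays, and Slc17a8 the same sides.

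On the receiving side, 13 of 19 GABA-A receptor subunits had a value against no stimulus and 12 against light touch. These subunits form the chloride channel that GABA opens. Against no stimulus 9 were below 1, beside 45.1% of all genes, and the median log2 ratio was -0.06. Against light touch 8 were above 1, beside 51.3% of all genes, and the median log2 ratio was 0.04. Gabrd, the delta subunit of receptors outside synapses, had 1.58 against no stimulus and 0.57 against light touch. Gabra4, which is often found with delta, had 1.44 and 0.56. Gabre had a median of 0.737 against no stimulus, from probes at 0.67 and 0.81, and 1.15 against light touch. Gabrd and Gabra4 therefore had the sides of Gabbr2. Gabre had the sides of the decarboxylases, as did Gabra2, Gabra5, Gabrb1, Gabrg1 and Gabrr2 with ratios nearer to 1. The auxiliary subunits and effectors of the GABA-B receptor, 11 of 12 measured, had median log2 ratios of 0.08 and -0.03. Among them the regulator of G protein signalling Rgs4 had 1.23 and 0.709, and it was the 1 gene outside that range on either array. Of the 6 measured genes of the inhibitory synapse scaffold and of chloride transport, 0 were outside it. Their median log2 ratios were -0.01 and 0.01.

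Transcription factors of GABA neurons went both ways. Of 13 measured, 8 were below 1 against no stimulus, beside 45.1% of all genes, with a median log2 ratio of -0.10. Against light touch 10 were above 1, beside 51.3% of all genes, with a median log2 ratio of 0.16. Dlx1, Dlx5, Isl1, Meis2 and Npas1 were below 1 against no stimulus and above 1 against light touch, as the decarboxylases were. The other measured factors did not have this pair of sides. Those at 0.8 or less against no stimulus were Lhx8 at 0.35, Lhx6 at 0.50, Meis2 at 0.73 and Isl1 at 0.80, where 2.48% of all genes were. Against light touch Dlx5 had 1.43, Isl1 1.34 and Lhx8 0.61. Lhx6 and Lhx8, factors of the ventral forebrain, were thus below 1 on both arrays. In the indirect comparison 13 of 13 had a ratio below 1, as did 48.4% of all genes, and 6 were at 0.8 or less, as were 4.07%.

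Peptides and calcium binding proteins that GABA neurons carry did not, as a list, lie below 1 against no stimulus. Of 14 measured, 9 were above 1 against no stimulus, beside 51.8% of all genes, with a median log2 ratio of 0.20. Against light touch 10 were above 1, beside 51.3% of all genes, with a median log2 ratio of 0.08. Those farthest from 1 against no stimulus were Vip at 2.24, Nos1 at 1.47, Pvalb at 1.41 and Agrp at 1.35. Against light touch they were Cartpt at 1.94, Agrp at 1.80, Npy at 1.59 and Sst at 1.57. The 2 probes of Nos1 had 0.96 and 2.26 on the no-stimulus array, so its value there rests on probes that differ. Thus Gad1 and Gad2 were on the opposite side of 1 from Agrp and Npy, products of a GABA neuron of the arcuate nucleus, against no stimulus. Against light touch they were on the same side.

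Several markers of brain regions and cell types also had ratios away from 1, and their part in the results on Gad1, Gad2, Slc32a1 and Gabbr2 was not tested. For the counts of markers, 51.8% of all genes were above and 45.1% below 1 against no stimulus. Against light touch 51.3% were above and 46.1% below, and in the indirect comparison 48.8% and 48.4%. Markers of thalamus and habenula had ratios of 1.16 to 3.99 against no stimulus, 8 of 8 above 1, and of 0.18 to 1.01 against light touch, 7 of 8 below 1. Farthest from 1 were Chrna3 at 3.99 against no stimulus and 0.18 against light touch, Prkcd at 2.42 and 0.44, and Shox2 at 2.32 and 0.383, with Tcf7l2 at 1.78 on the first array and Slc17a7 at 0.309 on the other. Their median indirect ratio was 4.23, with 8 of 8 above 1. Markers of the hypothalamus had 8 of 12 ratios above 1 against no stimulus, from 0.508 to 1.62, and 11 of 11 above 1 against light touch, from 1.11 to 2.13. Farthest from 1 against no stimulus were Avp at 0.508, Oxt at 0.67, Pomc at 1.62 and Rax at 1.52, and against light touch Pomc at 2.13, Pmch at 1.87, Agrp at 1.80 and Rax at 1.67. Their median indirect ratio was 0.750, with 11 of 11 below 1, which is near the 0.692 to 0.731 of Gad1, Gad2 and Slc32a1. The measured arrays did not show this nearness. The median log2 ratio of the hypothalamus markers was 0.32 against no stimulus and 0.69 against light touch. For Gad1, Gad2 and Slc32a1 it was -0.34 and 0.11. The medians thus had opposite signs against no stimulus and the same sign against light touch. Sim1 had no value against light touch. Markers of striatum, septum and the preoptic forebrain had a median log2 ratio of -0.27 against no stimulus, with 6 of 9 ratios below 1. Against light touch it was -0.04, with 5 of 9 below 1. Among them Lhx8 had 0.35 against no stimulus and 0.61 against light touch, Drd1 0.75 and 0.97, Penk 0.82 and 1.26, Foxp1 1.27 and 0.855, and Zic1 1.15 and 0.44, so that they went both ways. In RNA from whole tissue, fewer cells of a type and less RNA per cell cannot be told apart.

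Glutamate neuron markers had a median log2 ratio of 0.06 against no stimulus, with 5 of 6 ratios above 1. Against light touch it was -0.39, with 5 of 6 below 1. Next to the vesicular transporters above, Neurod1 had 1.05 and 0.21 and Camk2a 1.02 and 0.759. General neuron markers had median log2 ratios of -0.02 and -0.15 over 10 genes, and 6 and 7 of them were below 1. The neurofilament gene Nefh had ratios of 1.01 and 0.77. Astrocyte markers, relevant for Slc6a11, had 9 of 9 ratios above 1 against no stimulus and 8 of 9 against light touch. Their median log2 ratios were 0.07 and 0.10, and the log2 ratios of Slc6a11 were 0.07 and 0.15. Oligodendrocyte markers had median log2 ratios of 0.06, with 5 of 6 ratios above 1, and -0.17, with 6 of 6 below 1. Some genes stand in more than 1 list, Slc17a7, Lhx8, Agrp and Calb2 among them.

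**Figure D4:**
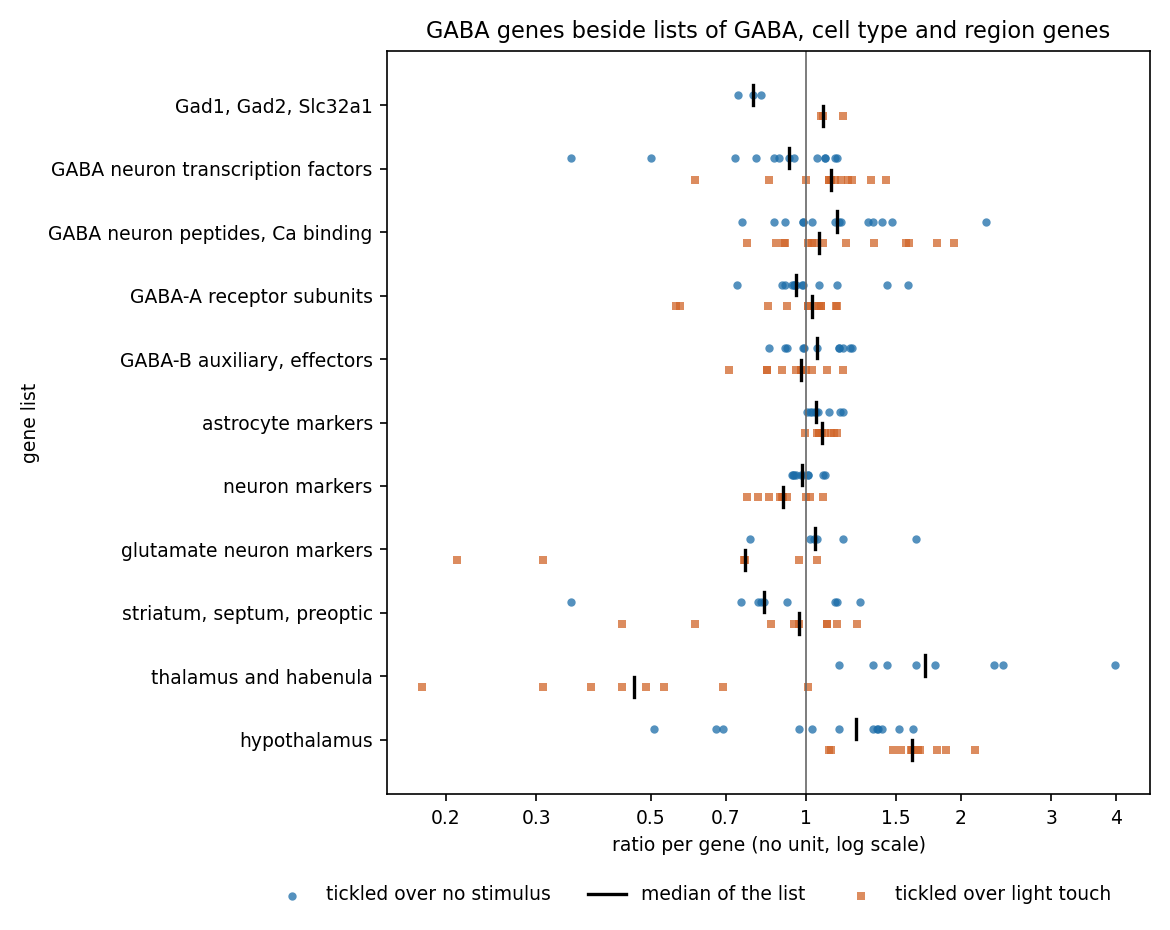
Ratio per gene (log scale, no unit) for Gad1, Gad2 and Slc32a1 and for 10 gene lists, against no stimulus (circles) and against light touch (squares), with a black bar at the median of each list. The thalamus and habenula markers have medians of 1.71 and 0.464, the hypothalamus markers have 11 of 11 ratios above 1 against light touch, and the 3 GABA genes have medians of 0.79 and 1.08.

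Genes with a pattern most like that of Gad1, Gad2 and Slc32a1 were sought by the distance between their log2 ratios on both arrays and the median of the 3, which lay at 0.79 and 1.08, the values of Gad2. Of 4147 genes with at least 2 probes on each array, the 5 nearest were Rab3b at 0.81 and 1.08, Cmip at 0.819 and 1.06, Pafah1b3 at 0.825 and 1.08, Ptprt at 0.83 and 1.07, and Klhl42 at 0.765 and 1.12. Likeness over 2 values is weak. Within the distance of Gad1, the farthest of the 3, lay 116 of 11534 genes (1.01%).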

How the data were processed

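RNA of the hypothalamus was compared on 2 two-colour arrays. The authors' deposited values are linear ratios, 1 per probe and array, to 2 decimals, with a median of 1 on each array. What image analysis, background correction, normalization and numerator channel were used, and why 30.2% and 32.0% of probes were empty against no stimulus and light touch, was not given in the sources used here. Per the labels, 500 ng of total RNA was amplified to aminoallyl cRNA and coupled to the dyes.

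Probes with 1 symbol in the platform annotation (23535) named a gene, and 48 with several did not. Symbols were updated by Entrez identifier through the RefSeq table of GRCr8. Log2 ratios were taken, and a gene's value was the median over its probes. The indirect value subtracts the log2 ratio against light touch from that against no stimulus. No test was made, since each comparison had 1 array; signal levels were not used here. The number of arrays limits the precision.

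The members, the 9 pathway and 7 marker lists, the motifs and the limits of size were chosen with earlier results of these data known. Every member was named, and of each list its members at 0.8 or less or at the reciprocal of 0.8 or more, up to the 4 farthest on each array, and any gene a comparison needed. Running medians and probe spread were checked on simulated data. Python 3.11.15, numpy 2.4.6 and pandas 2.3.3 were used.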

Additional observations from a re-analysis of the deposited data

How the results depend on the processing

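The 7 members were recomputed under 6 alternatives, which were the mean over probes, the probe nearest to a ratio of 1, the local median over 500 neighbouring probes subtracted, the middle 80% of probe numbers only, probes valued on both arrays only, and centring on all named genes. Of 126 values, 125 moved by less than the probe spread. The exception was Gad1 in the indirect comparison, at -0.34 log2 units with the probe nearest to 1 and -0.53 as reported. Much of this was fixed in advance. For the 5 members with 1 probe, the mean, the nearest probe, the middle 80% and probes valued on both arrays return the reported value. Centring shifted every gene by 0.01 log2 units on each array and left indirect values unchanged. The count of 125 is therefore little measure of robustness. Gad1 ranged from 0.784 to 0.84 against no stimulus and from 1.06 to 1.18 against light touch, Gad2 from 0.782 to 0.794 and from 1.07 to 1.08, Slc32a1 from 0.733 to 0.771 and from 1.06 to 1.10, and Gabbr2 from 1.08 to 1.09 and from 0.721 to 0.75. The count of members below 1 against light touch was 2, 1 with the local median subtracted, where Abat stood at 1, and 3 with the probe nearest to 1, where Gabbr1 stood at 0.95. With the middle 80% of probe numbers Gad1 joined Gad2 and Slc32a1 at 0.8 or less against no stimulus, 3 members in place of 2. In 4 values, all of Gabbr1 and 3 of them indirect, the side of 1 changed. Of the 11 member probes 1, of Gad1, lay in the outermost 20% of probe numbers. No paired analysis was possible because each comparison had 1 array. Leaving out an array would leave no value.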
